A study of Sus scrofa with 220 samples.

Results

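The genes described here are the simple-epithelium keratins KRT8 (ENSSSCG00000000252) and KRT18 (ENSSSCG00000000253) and the claudins CLDN4 (ENSSSCG00000007718) and CLDN8 (ENSSSCG00000012030), chosen as the rows of the pig expression tables whose Ensembl identifier carries one of these symbols. They were 4 of 22840 gene entries, and each matched 1 entry. The study sequenced 220 single cells by Smart-seq2, which reads full-length polyadenylated transcripts, from 28 pig embryos flushed from artificially inseminated crossbred Large White and Landrace sows. The labels give no transgene or treatment for any group. The 7 cell type labels were Morula (47 cells of 8 embryos and 1 cell without an embryo name, counted among the 47), inner cell mass and trophectoderm of the early blastocyst (EB ICM, 24 cells of 7 embryos, and EB TE, 28 cells of 10 embryos), epiblast and hypoblast of the late blastocyst (LB EPI, 25 cells of 4 embryos, and LB HYPO, 36 cells of 5 embryos), and epiblast and hypoblast of the spherical embryo (Sph EPI, 48 cells of 4 embryos, and Sph HYPO, 12 cells of 3 embryos). Trophectoderm was collected only at the early blastocyst: it was lysed and removed from late blastocysts, and spherical epiblast and hypoblast were separated by hand. Sex was not balanced between labels. From Y chromosome expression, the paper counted mostly male cells in Morula, EB ICM and Sph EPI and mostly female cells in EB TE and LB HYPO. All Sph HYPO cells were male. Sex entered no test here. Per the study's methods, early and late blastocyst cells were not sorted by lineage before collection and lineage was read from clustering on all expressed genes, so the ICM against TE and LB EPI against LB HYPO tests compare groups that expression itself helped to form.

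Keratins are the intermediate filament proteins of epithelia. KRT8, a type II keratin, and KRT18, a type I keratin, polymerise with each other as an obligate pair, and they are the first keratins to appear in mammalian embryos, where they mark the trophectoderm. Claudins are the membrane proteins that form the strands of tight junctions and set which ions pass between cells, and a tight-junction seal is what lets the trophectoderm hold the blastocoel fluid. CLDN4 and CLDN8 are both barrier-forming claudins that are known to interact in kidney epithelium.

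Gene counts per cell ran from 1012604 to 5696373, with a median of 2006854. For tests between groups, each embryo's cells of 1 label were pooled by adding their counts, which gave 41 sums, 6 of them of a single cell. Levels are given as TPM (transcript abundance scaled to a fixed total per cell), which is scaled per length and can be compared between genes, averaged over an embryo's cells. On sums of marker genes the labels held in the main, with exceptions among single genes. Of 9 ICM and epiblast markers and 9 hypoblast markers looked for, 7 of each list had an entry. SOX2, NANOG and SOX17 were not among these and were not checked. The summed TPM of 8 trophectoderm markers was highest in EB TE (embryo median 2503) and next in Morula (1269), against 43.8 to 590 elsewhere. The sum of 7 hypoblast markers had embryo medians of 2038 in LB HYPO and 2541 in Sph HYPO, against at most 328 elsewhere. DAB2 was most of the first sum in TE (mean 1527 TPM). FN1 was most of the second in LB HYPO and Sph HYPO (means 1570 and 2189 TPM). CDX2 and ELF5, also on the trophectoderm list, exceeded 1 TPM in 1 and 2 of 28 TE cells. The sum of 7 ICM and epiblast markers had embryo medians of 364 in ICM, 636 in LB EPI and 432 in Sph EPI. Its median was at most 200 in the other labels. KLF17, on that list, averaged 91.3 TPM in ICM and 83.8 TPM in TE. NODAL, on that list, exceeded 1 TPM in 6 of 12 Sph HYPO cells, and the trophectoderm marker GATA3 in 9 of 12. PTPRC and CSF1R, on the blood and immune list, were at 0 in every label, and 4 uterine epithelium markers summed to at most an embryo median of 0.50 TPM. The sum of 6 blood markers was highest in ICM (embryo median 98.7 TPM, mostly HBB, against 0 in TE). The sum of 5 endothelial or stromal markers had embryo medians of 75.5 TPM in ICM, 67.3 in LB HYPO, 50.8 in LB EPI and 0 in TE. In ICM it was PECAM1 alone, and CDH5, KDR, COL3A1 and ACTA2 were at 0 there. The part of these markers in the ICM results was not tested. The only cell of TE embryo E6-ER, with 3291110 gene counts, matched its label at most in part. It had no count of the trophectoderm markers GATA2, GATA3 and DAB2. It had 358 TPM of KLF4, an ICM and epiblast marker with a mean of 253 TPM in ICM. It also had 118 TPM of PDGFRA, a hypoblast marker over 1 TPM in 19 of 24 ICM cells and 2 of 28 TE cells. FN1, over 1 TPM in 24 of 24 ICM cells, had no count in it. Its 174 TPM of TFAP2A and 305 TPM of TFAP2C are of genes on the trophectoderm list. These genes also exceeded 1 TPM in 18 and 24 of the 24 ICM cells. Since it stood apart from the other TE cells, embryo ranges and keratin fits that rest on TE are given with and without it. Other results, such as ranks, shares of TPM and fits within pools, include it unless stated.

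KRT8 was the most abundant transcript of EB TE and of Sph HYPO, where it ranked 1st of all gene entries by mean TPM and made up 2.865% and 3.002% of all TPM. In EB TE, the embryo means ran from 0 through a median of 27461 to 40166 TPM, and the 0 was embryo E6-ER. The other 9 TE embryos lay between 12177 and 40166 TPM. In Sph HYPO, the 3 embryos were at 15065, 25809 and 34824 TPM. EB TE without E6-ER and Sph HYPO overlapped, and both lay above every embryo of the other 5 labels. The 4 Sph EPI embryos had 2503, 5562, 6581 and 6776 TPM, and KRT8 ranked 5th among all entries there.

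Late blastocyst cells carried intermediate KRT8. The 4 LB EPI embryos were at 1443, 1918, 2499.85 and 2859 TPM, and the 5 LB HYPO embryos were at 1340, 1658, 1958, 1996 and 2025 TPM. These ranges overlapped, and all 25 LB EPI and 36 LB HYPO cells exceeded 1 TPM. Morula embryos were the most scattered, with a lowest mean of 180 TPM, a median of 1308 and a highest of 3203. EB ICM was the lowest label, at 138, 209 and 501.8 TPM for the lowest, median and highest of its 7 embryos, and these values overlapped only the lower Morula embryos. Even so, 23 of 24 ICM cells exceeded 1 TPM (95.8%, exact Clopper-Pearson 95% interval 78.9 to 99.9, counting error only), so the gene was low in the ICM and not absent from it.

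KRT18 reads that also matched another keratin copy would have been dropped, since only uniquely placed reads were counted. KRT18 had the same highest and lowest labels but another order between them. In EB TE it ranked 3rd of all entries, with embryo means from 0.368 through a median of 11332 to 17654 TPM. Embryo E6-ER, with a single KRT18 count, gave the lowest value, and the next embryo had 4567 TPM. LB EPI followed, with its 4 embryos at 1532, 2439, 2865 and 3244 TPM. The 3 Sph HYPO embryos were at 2006, 2314 and 7970 TPM, and Sph EPI had 305, 1937, 1951 and 2417 TPM. Morula ran from 282 through 1394 to 1966 TPM.

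LB HYPO and EB ICM formed the low end for KRT18. The 5 LB HYPO embryos had 138, 154, 249.6, 258 and 377 TPM, below every LB EPI embryo. The 7 ICM embryos ran from 31.1 through 55.5 to 116 TPM and did not overlap any other label except for TE embryo E6-ER. In the ICM, 18 of 24 cells exceeded 1 TPM (75%, interval 53.3 to 90.2), and 6 ICM cells had KRT8 without KRT18 above that level against 1 with the reverse. In Morula, TE and the 4 later labels no cell had either keratin alone: 2 Morula cells of embryo S and the E6-ER cell had neither above 1 TPM, and all others had both.

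**Figure D1:**
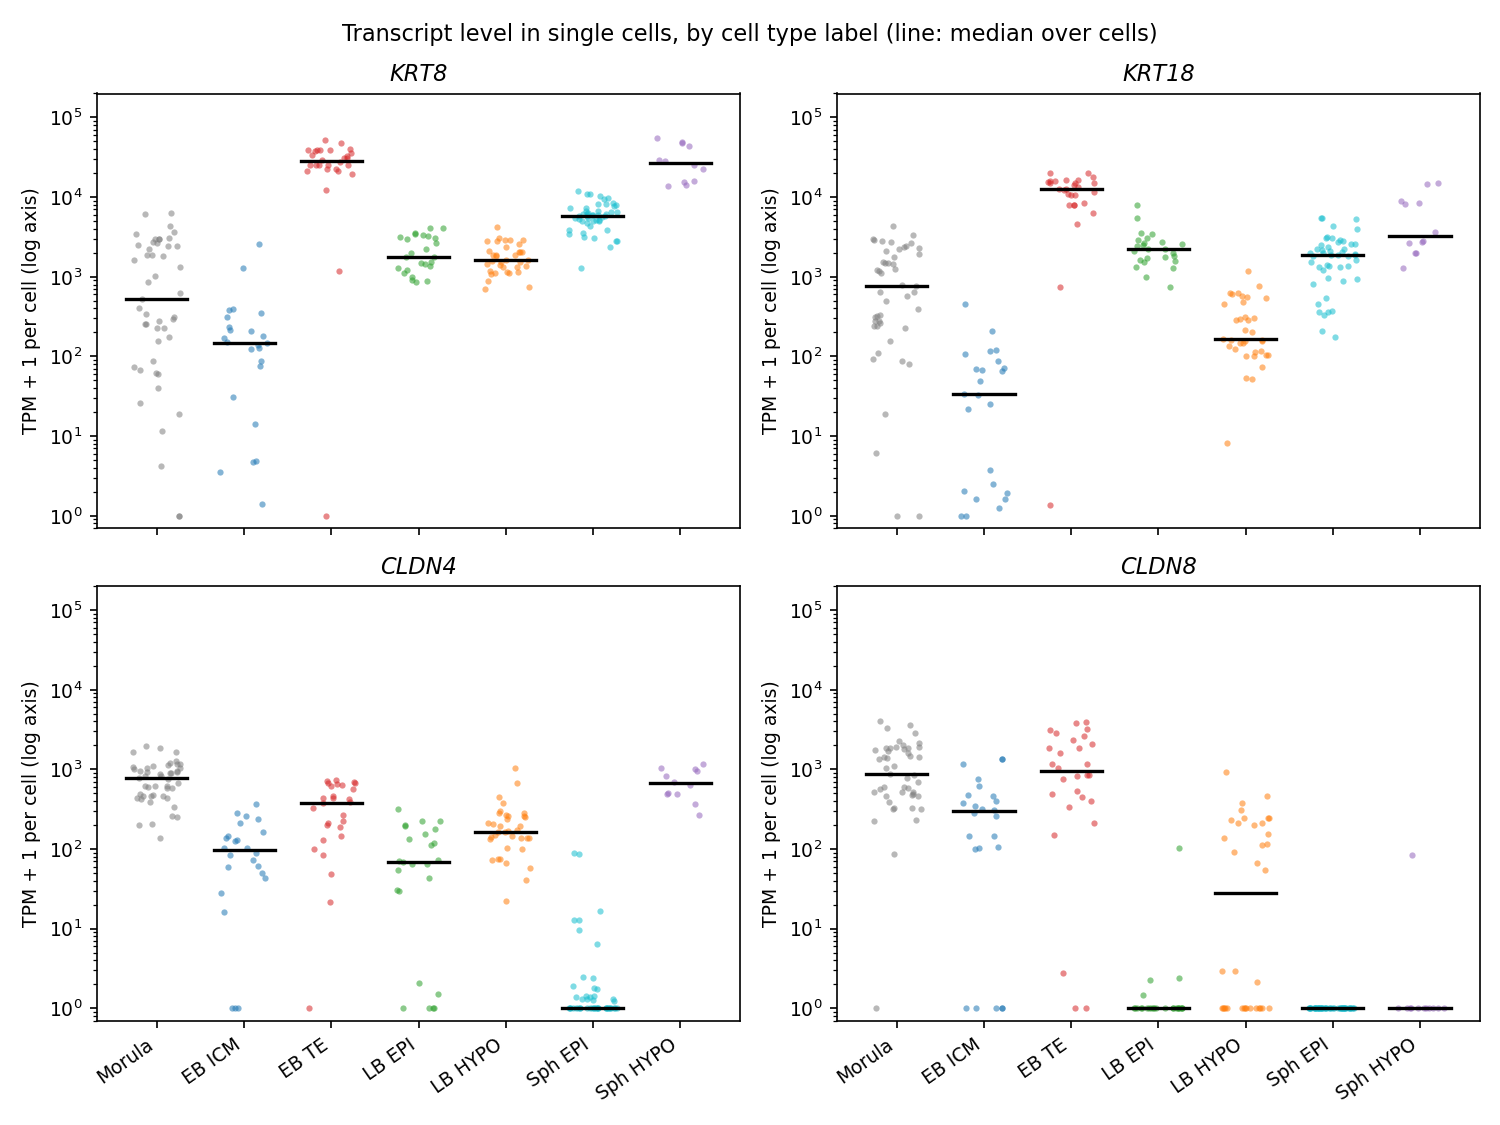
TPM + 1 of KRT8, KRT18, CLDN4 and CLDN8 (log axis) in each of the 220 cells, by cell type label; black lines are medians over cells. KRT8 sat near 28352 TPM in EB TE and 27036 in Sph HYPO, and CLDN8 was at 0 in all 48 Sph EPI cells.

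Since the keratins pair in 1 filament, the log2 ratio of KRT18 to KRT8 TPM was taken in each cell with both above 1 TPM and averaged per embryo. Since only uniquely placed reads were counted, this ratio of TPM may differ from the ratio of the transcripts. The TPM values were near parity in LB EPI (0.20 ± 0.29, SD, n = 4 embryos) and Morula (0.52 ± 1.53, SD, n = 8), and KRT8 TPM was in excess everywhere else. In EB TE the ratio was -1.31 ± 0.28 (SD, n = 9), or 2.47 TPM of KRT8 for each TPM of KRT18. LB HYPO had the largest excess, -3.18 ± 0.40 (SD, n = 5), or 9.06 to 1, followed by Sph HYPO at -2.92 ± 0.60 (SD, n = 3), Sph EPI at -2.09 ± 0.64 (SD, n = 4) and ICM at -1.70 ± 0.85 (SD, n = 7). The Morula spread came from embryo Y, whose 3 cells averaged 4.08. Cell Y15 of that embryo had 1493 TPM of KRT18 and 3.26 of KRT8. The other 7 Morula embryos lay between -0.61 and 0.78.

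Of 4 comparisons of this ratio, 2 passed a two-sided exact permutation test over embryo means, with p adjusted over the 4. The test took these means as independent. Yet 7 embryos gave cells to both ICM and TE, 3 to both LB labels and 3 to both Sph labels. No paired test of the ratio was run. LB EPI exceeded LB HYPO by 3.37 on the log2 scale, with no overlap between 4 and 5 embryo means (exact p = 0.0159, the smallest possible, adjusted p = 0.0317). Leaving out any 1 of these means kept the difference between 3.21 and 3.51, where the remaining 8 means could not reach an adjusted exact p below 0.0571. Morula exceeded TE by 1.83 (exact p = 8.23e-05, the smallest possible, adjusted p = 0.000329), again without overlap, and by 1.32 without embryo Y. The ICM and TE ratios differed by -0.40 (exact permutation p = 0.222, adjusted p = 0.222), which did not pass. With all cells counted the difference was -0.94 (exact permutation, adjusted p = 0.0212). That setting takes in TE embryo E6-ER, which has no KRT8 count, and ICM cells with a keratin at or below 1 TPM. It was not repeated without E6-ER. Sph EPI minus Sph HYPO was 0.83 (exact permutation p = 0.114, adjusted p = 0.152), where 4 against 3 embryo means cannot go below 0.0571.

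**Figure D2:**
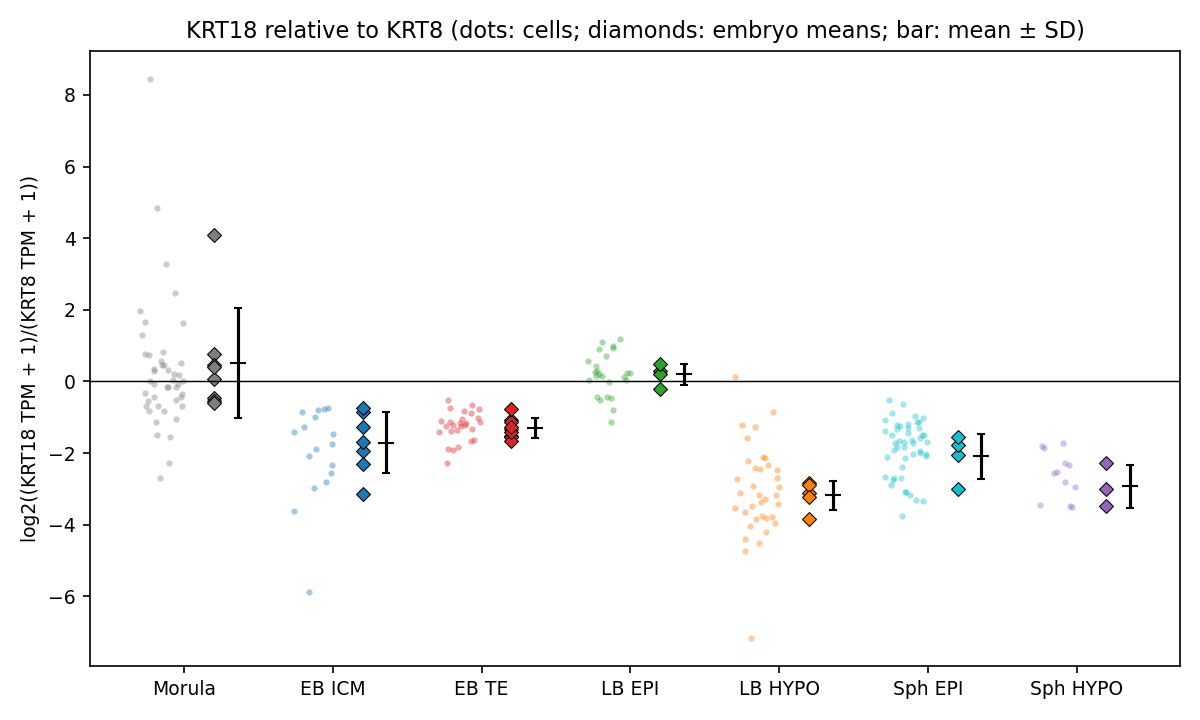
Log2 of (KRT18 TPM + 1)/(KRT8 TPM + 1) by label: dots are cells with both genes above 1 TPM, diamonds are embryo means, and bars are the mean and SD over embryos. LB EPI (mean 0.20) and LB HYPO (mean -3.18) did not overlap, and Morula embryo Y stood apart at 4.08.

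CLDN4 had its highest level in Morula, before a blastocoel forms, and there its spread between embryos was the smallest of the 4 genes (SD 0.28 of log2(CPM + 1), n = 8). The 8 Morula embryos ran from 614 through 846 to 1150 TPM and all 47 cells exceeded 1 TPM. The 3 Sph HYPO embryos had 316, 744 and 927 TPM and overlapped them. TE embryos ran from 0 (E6-ER) through 382 to 683 TPM, or from 143 upwards without E6-ER. The 5 LB HYPO embryos lay close together at 186, 213, 232, 235 and 330.3 TPM. ICM ran from 0 through 111 to 171 TPM, where the 0 was the single cell of embryo AI, and LB EPI had 60.1, 83.3, 88.6 and 130.2 TPM.

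In Sph EPI the gene was close to absent. Its 4 embryos had 0.176, 1.16, 2.27 and 10.21 TPM, below every other embryo that expressed the gene, and 9 of 48 cells exceeded 1 TPM (18.8%, interval 8.95 to 32.6). All 12 Sph HYPO cells did so.

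CLDN8 was high in Morula and TE, lower in ICM and LB HYPO, and at or near 0 in most cells of the other labels. Morula embryos ran from 587 through 1258 to 1818 TPM, and 46 of 47 cells exceeded 1 TPM. TE ran from 0 through 1251 to 3327 TPM, or from 398 upwards without E6-ER, and ICM from 0 through 373 to 814 TPM, where the 0 was the single cell of embryo AD. Morula and TE overlapped almost fully. The LB HYPO embryos had 0, 72.1, 89.4, 107 and 181 TPM, the 0 again a single-cell embryo (AL), and 21 of 36 cells exceeded 1 TPM (58.3%, interval 40.8 to 74.5).

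In LB EPI the CLDN8 count was 86 over 25 cells, of which 85 came from embryo AO and 83 from 1 cell of it. The 4 embryos were at 0, 0, 0.140 and 20.7 TPM. Sph EPI had no CLDN8 count in any cell: 0 of 48 cells, where a limit of 3 cells in 48 is 6.25% and the upper exact Clopper-Pearson bound is 7.40%, for counting error only and with cells of 4 embryos taken as independent. In Sph HYPO, all 98 counts came from 1 of 12 cells, in embryo F, and the 3 embryos were at 0, 0 and 10.5 TPM. At the spherical stage, every hypoblast embryo thus had at least 316 TPM of CLDN4, while CLDN8 was near 0 in both lineages.

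**Figure D3:**
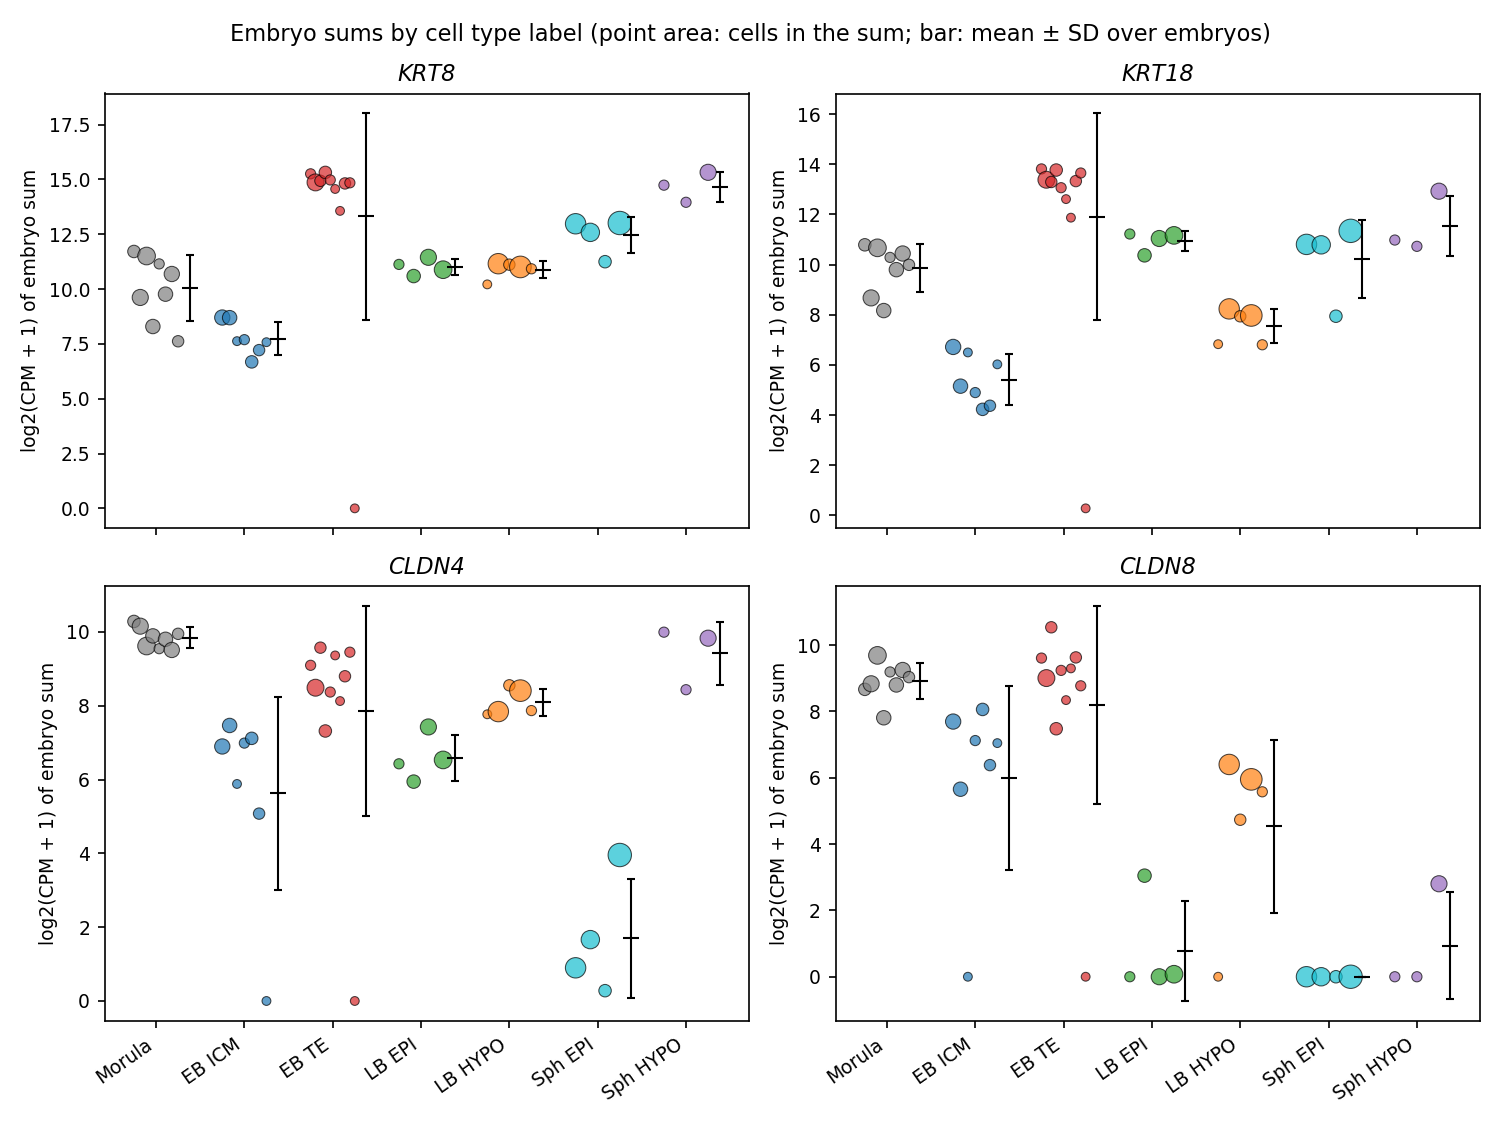
Log2(CPM + 1) of counts summed per embryo and label (1 point per embryo, area by number of cells), with the mean and SD over embryos. The TE point at 0 for KRT8, CLDN4 and CLDN8 is embryo E6-ER; Sph EPI is lowest of all labels for CLDN4 (mean 1.70).

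The first comparison asks what separates the 2 lineages of the early blastocyst. Both keratins were higher in TE than in ICM and neither claudin passed the test. On the scale of log2(CPM + 1) of embryo sums, KRT8 averaged 7.74 ± 0.74 (SD, n = 7) in ICM and 13.31 ± 4.70 (SD, n = 10) in TE, or 14.79 ± 0.51 (SD, n = 9) without E6-ER, where the groups no longer overlapped. The log2 fold change of ICM over TE was -6.80 (SE 1.04) with E6-ER and -6.96 (SE 0.35) without it, a 112-fold difference in the former (edgeR adjusted p = 0.00235 and 8.31e-11). KRT18 had -7.47 (SE 1.03) with and -7.62 (SE 0.47) without it (edgeR adjusted p = 0.000696 and 2.76e-09). Thus 2 of 4 genes were called, beside 0.754% of all 14721 genes tested. The claudins leaned the same way, CLDN4 by -2.19 (SE 0.93, edgeR adjusted p = 0.167) and CLDN8 by -2.20 (SE 0.96, edgeR adjusted p = 0.185), and their embryo ranges overlapped. These values include E6-ER. Without it, TE averaged 8.73 ± 0.73 (SD, n = 9) for CLDN4 and 9.10 ± 0.86 for CLDN8. ICM averaged 5.63 ± 2.62 and 5.99 ± 2.76 (SD, n = 7). Neither claudin was called in any of 29 alternative fits, the one without E6-ER among them. Within the first 4 of 8 library pools both keratins were called. The last 4 pools held the E6-ER cell, and there KRT8 had -6.16 (edgeR adjusted p = 0.129) and KRT18 -6.71 (edgeR adjusted p = 0.0796). The last 4 pools were not fitted without that cell.

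Between morula and ICM, 3 of the 4 genes were lower in the ICM, beside 2.45% of all genes called. KRT18 was 20.1-fold higher in Morula (log2 fold change 4.33, SE 0.50, edgeR adjusted p = 7.93e-05) and CLDN4 9.58-fold (3.26, SE 0.64, edgeR adjusted p = 0.00755), both with no overlap between 8 and 7 embryos. KRT8 was 6.17-fold higher (2.63, SE 0.53, edgeR adjusted p = 0.00944), and its ranges overlapped. CLDN8 was at 1.96 (SE 0.68, edgeR adjusted p = 0.107) and was called without ICM embryo AD, its single cell being at 0 (1.79, edgeR adjusted p = 0.00996). Within the last 4 pools neither keratin was called (1.91 for KRT8 and 3.66 for KRT18, edgeR adjusted p = 0.267 and 0.0726) and CLDN4 was; within the first 4 the keratins were called and CLDN4 just missed (edgeR adjusted p = 0.0510).

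Between morula and TE, the keratins were higher in TE and the claudins did not pass, so that 2 of 4 genes were called beside 0.808% of all genes. KRT8 had -4.12 (SE 0.89, edgeR adjusted p = 0.0280) and KRT18 -3.07 (SE 0.74, edgeR adjusted p = 0.0472), against a median of 0.16 over all genes. Both were also called without E6-ER, at much lower adjusted p. Without that embryo, KRT8 had -4.26 (SE 0.47, edgeR adjusted p = 1.95e-05) and KRT18 -3.22 (SE 0.33, edgeR adjusted p = 8.77e-06), and the groups did not overlap for either gene. With E6-ER kept, the KRT18 call was lost when any of the 17 other embryos was left out (log2 fold change -3.25 to -2.97, edgeR adjusted p = 0.0531 to 0.0888), and the KRT8 call without Morula embryo S, U, W or X (-4.17 to -3.999, edgeR adjusted p up to 0.0654). Neither was called within the last 4 pools, which held the E6-ER cell (-4.35 and -3.18, edgeR adjusted p = 0.128 and 0.151). CLDN4 was at 1.14 (SE 0.59, edgeR adjusted p = 0.294) and CLDN8 at -0.17 (SE 0.64, edgeR adjusted p = 1), with E6-ER kept. None of 30 alternative fits called either claudin, the one without E6-ER among them.

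The late blastocyst comparison of EPI with HYPO split the keratin pair. KRT18 was 9.67-fold higher in EPI (log2 fold change 3.27, SE 0.35, edgeR adjusted p = 0.000780), with 4 EPI embryos at 10.95 ± 0.39 (SD) and 5 HYPO embryos at 7.56 ± 0.68 (SD) log2(CPM + 1) and no overlap. KRT8 did not pass, at 0.09 (SE 0.24, edgeR adjusted p = 0.956), and KRT18 was the only 1 of the 4 genes called, beside 1.92% of all genes, and it was called in the first 4 and in the last 4 pools (3.24 and 2.97, edgeR adjusted p = 0.00187 and 0.0238). With the 3 shared embryos as a replicate block, KRT18 was still called (3.29, edgeR adjusted p = 0.0282), while the genes called overall went from 283 to 20. CLDN4 was lower in EPI without overlap, by -1.49 (SE 0.43), and did not pass in edgeR (adjusted p = 0.116), though DESeq2 called it (adjusted p = 0.00995). CLDN8 was at -4.59 (SE 2.12, edgeR adjusted p = 0.249).

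In the spherical embryo the pattern was another. KRT8 was 4.49-fold lower in EPI than in HYPO (log2 fold change -2.17, SE 0.38, edgeR adjusted p = 0.0215) and CLDN4 was 169-fold lower (-7.40, SE 1.26, edgeR adjusted p = 0.0187), both without overlap, while KRT18 did not pass (-1.26, SE 0.67, edgeR adjusted p = 0.391). These 2 of 4 genes stood beside 1.13% of all genes called, and the median over all genes was 0.57, to the EPI side. Lack of overlap between so few embryos carries little weight, and its share over all genes was not counted. KRT8 just missed without HYPO embryo C (-2.18, edgeR adjusted p = 0.0564) or F (-1.79, edgeR adjusted p = 0.0508), and CLDN4 without EPI embryo E (-7.02, edgeR adjusted p = 0.0597). KRT8 was called in the first 4 pools (-2.52, edgeR adjusted p = 0.00481) and not in the last 4 (-2.10, edgeR adjusted p = 0.0798), and CLDN4 in the last (-7.64, edgeR adjusted p = 0.0485) and not in the first (-7.37, edgeR adjusted p = 0.0548). CLDN8 was not called (edgeR adjusted p = 0.282), and its counts in HYPO were those of 1 cell. With the replicate block, KRT8 and CLDN4 were called again and the genes called overall went from 167 to 82.

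Whether the EPI minus HYPO difference changed from late blastocyst to spherical embryo was tested as an interaction. KRT18 passed: its difference was 4.63 higher on the log2 scale at the late blastocyst (SE 0.79, edgeR adjusted p = 0.0371), against a median of -0.43 over all genes, and 1 of 4 genes was called beside 0.0408% of all genes. KRT8 was at 2.34 (SE 0.44, edgeR adjusted p = 0.0615) and CLDN4 at 5.99 (SE 1.15, edgeR adjusted p = 0.0641), just outside the threshold. EPI and HYPO cells of 3 embryos at each stage came from the same embryo, and with the embryo as a replicate block all 3 passed (KRT8 2.32, KRT18 4.86 and CLDN4 7.31, edgeR adjusted p = 7.95e-06, 4.22e-05 and 0.0129). The alternative fits of this interaction, the block among them, called from 3 to 542 of all genes. Without the block, the KRT18 call was lost on leaving out LB EPI embryo AN or AQ, LB HYPO embryo AL, AM or AP, Sph EPI embryo C or D, or Sph HYPO embryo C (4.47 to 4.95, edgeR adjusted p = 0.0513 to 0.106).

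Across stages, both keratins were higher in the hypoblast of the spherical embryo than in that of the late blastocyst. These labels also differ in sex, with mostly female LB HYPO and only male Sph HYPO cells, and in how cells were isolated. The part of sex or isolation in this difference was not tested. KRT8 was 15.2-fold higher in Sph HYPO than in LB HYPO (log2 fold change of LB over Sph -3.92, SE 0.25, edgeR adjusted p = 2.85e-06) and KRT18 19.8-fold (-4.31, SE 0.48, edgeR adjusted p = 0.000978), without overlap and also within the first 4 and the last 4 pools. These were 2 of the 24 genes called there, 0.163% of all tested. CLDN4 was at -1.51 (SE 0.42, edgeR adjusted p = 0.288) and CLDN8 at 4.30 (SE 2.29, edgeR adjusted p = 0.517). In the epiblast, none of the 4 genes passed between LB and Sph, beside 0.156% of all genes. KRT8 was at -1.47 (SE 0.32, edgeR adjusted p = 0.112) and was called without Sph EPI embryo E (-1.77, edgeR adjusted p = 0.0200). CLDN4 was 24.3-fold higher in LB EPI with no overlap (4.60, SE 1.16, edgeR adjusted p = 0.182). It was called without Sph EPI embryo F (6.59, edgeR adjusted p = 0.0495) and by DESeq2 (adjusted p = 0.000589). At an unadjusted p under 0.05 in edgeR there were 3 of the 4 genes (KRT8, CLDN4 and CLDN8), and 1999 of all genes, and DESeq2 called KRT8 and CLDN4. CLDN8 did not pass either (edgeR adjusted p = 0.366): it had no count in Sph EPI, and 83 of its 86 counts in LB EPI were in 1 cell.

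From ICM to LB EPI, both keratins were higher in the epiblast, 2 of 4 genes beside 2.91% of all. KRT8 had -3.18 (SE 0.35, edgeR adjusted p = 0.000104) and KRT18 -5.33 (SE 0.49, edgeR adjusted p = 1.97e-05), a 40.2-fold difference, with no overlap and a median of -0.11 over all genes. KRT8 was not called within the last 4 pools (-2.18, edgeR adjusted p = 0.184). CLDN4 was at -0.18 (SE 0.94, edgeR adjusted p = 1) and CLDN8 at 6.01 (SE 1.96, edgeR adjusted p = 0.118), and CLDN8 was called without LB EPI embryo AO (edgeR adjusted p = 0.0124). From ICM to LB HYPO, KRT8 was the only 1 of the 4 genes called, beside 2.1% of all, at -3.01 (SE 0.33, edgeR adjusted p = 5.83e-05). It missed within the last 4 pools (-2.41, edgeR adjusted p = 0.232). KRT18 had -1.97 (SE 0.57, edgeR adjusted p = 0.0929) and its groups did not overlap. These contrasts share their ICM embryos with each other and with the TE contrast.

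Between TE and LB HYPO, KRT18 was 43.9-fold higher in TE (5.46, SE 1.06, edgeR adjusted p = 0.00605), the only 1 of the 4 genes called, beside 2.83% of all. KRT8 at 3.76 (SE 1.03, edgeR adjusted p = 0.0521) and CLDN8 at 3.71 (SE 1.17, edgeR adjusted p = 0.0716) just missed. Without embryo E6-ER these 3 genes were called, KRT18 at 5.70, KRT8 at 3.996 and CLDN8 at 3.97 (edgeR adjusted p = 4.92e-09, 3.97e-09 and 0.00741). Within the last 4 pools, with the E6-ER cell among them, KRT18 was not called (5.32, edgeR adjusted p = 0.141). CLDN4 was at 0.58 (SE 0.79, edgeR adjusted p = 0.860) with E6-ER, and none of 26 alternative fits called it.

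**Figure D4:**
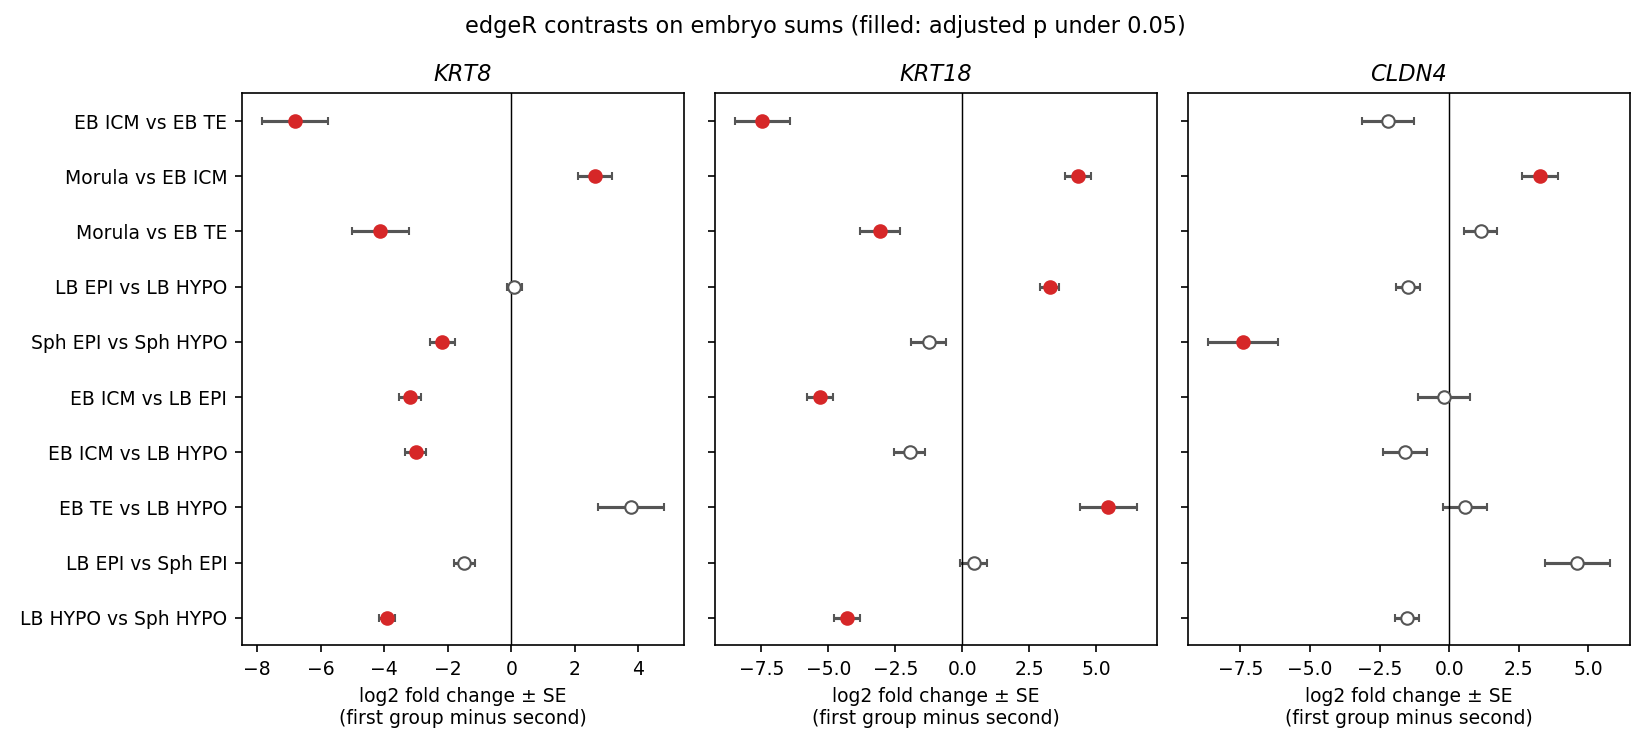
Log2 fold change (first group minus second) with its SE from edgeR for KRT8, KRT18 and CLDN4 in the 10 comparisons; filled points have an adjusted p under 0.05. CLDN8 is left out because it was at or near 0 in 3 labels; the KRT18 value for LB EPI against LB HYPO is 3.27 and that of KRT8 is 0.09.

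Other keratins with an entry under their symbol were scarce, and those without one were not measured here. Of 14 further keratins looked for, 6 had an entry in the tables, and KRT10, a keratin of differentiating epidermis, was the only 1 expressed enough to be tested. It stood at embryo means of 5.78 TPM (ICM) to 28.2 TPM (Sph HYPO) and was called in none of the 10 comparisons by edgeR, with an unadjusted p under 0.05 in 0 of them. KRT1, KRT15 and KRT79 had no TPM in any cell, and KRT20 and KRT23 exceeded 1 TPM in at most 1 cell of a label. Of 21 further claudins, 12 had an entry and 6 were tested. CLDN6, a claudin of embryonic epithelia, was present in every label, from 298 TPM in Morula to 1780 TPM in LB HYPO. It exceeded 1 TPM in 19 of 28 TE cells and in every cell of the other labels. CLDN10, a pore-forming claudin, was at 138 TPM in Sph EPI and at most 6.51 TPM elsewhere. In Sph EPI against Sph HYPO it was the only other claudin called (8.71, SE 1.62, edgeR adjusted p = 0.0296), higher in EPI, where CLDN4 was lower. That was 1 of 6 beside 1.13% of all genes. The median over the 6 claudins was 7.18 there, 0.07 between ICM and TE and 0.51 between LB EPI and LB HYPO. In each of these 3 comparisons 2 of the 6 had an unadjusted p under 0.05 in edgeR, beside 2783 (ICM and TE), 2943 (LB) and 2236 (Sph) of all 14721 genes. CLDN9 exceeded 1 TPM in 31 of 48 Sph EPI cells and in no Morula, ICM or Sph HYPO cell. KRT10, CLDN6 and CLDN9 were singled out after their values were seen.

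**Figure D5:**
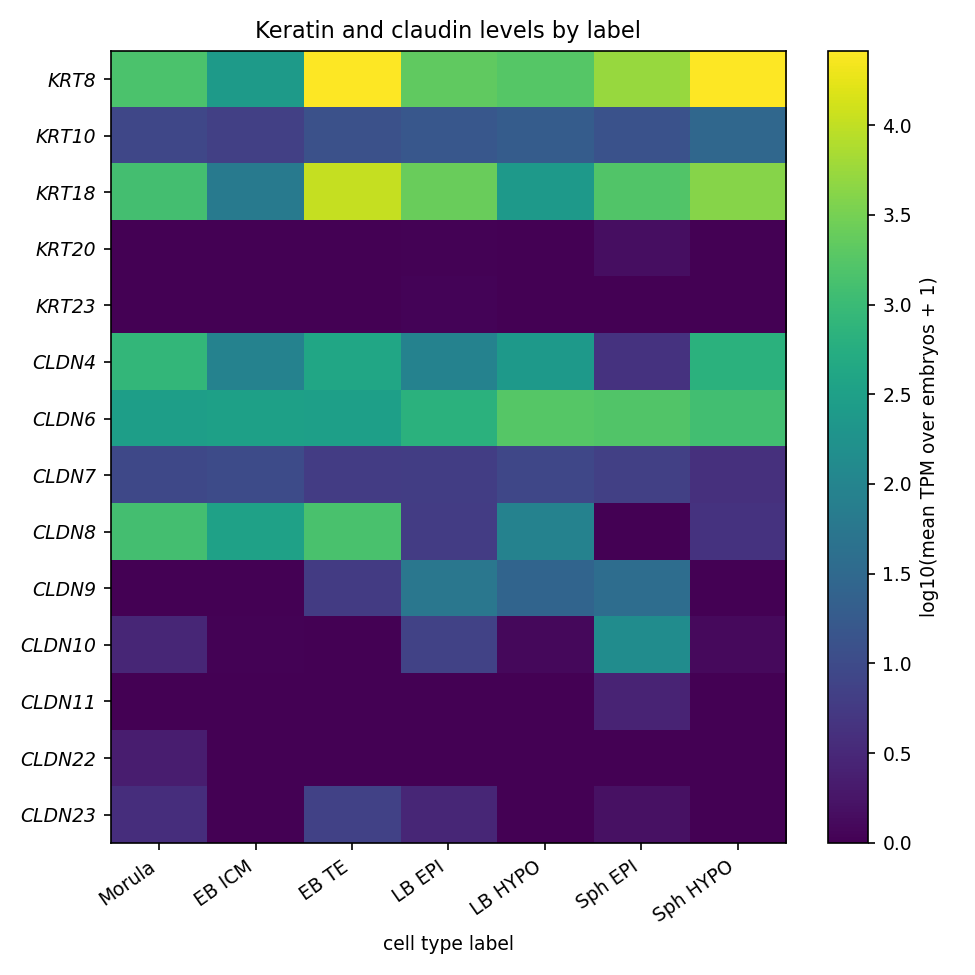
Mean TPM over embryos (log10 scale of TPM + 1) of the keratin and claudin entries with any signal, by label. KRT8 and KRT18 exceed the other keratins with an entry in every label. CLDN6 is present throughout, and CLDN10 is high only in Sph EPI among the 7 labels (138 TPM).

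Of 16 tight junction partners tested, 1 was called between ICM and TE: PARD6B, a polarity protein of the apical complex, was lower in ICM (-1.81, SE 0.42, edgeR adjusted p = 0.0462). That was beside 0.754% of all genes called. The median of the list was 0.09 against 0 over all genes. PARD6B was also lower in Sph EPI than in Sph HYPO (-3.92, SE 0.50, edgeR adjusted p = 0.00426), and so was OCLN (occludin, a tight junction membrane protein) by -2.87 (SE 0.59, edgeR adjusted p = 0.0471). These were 2 of 16, beside 1.13% of all genes called, with a list median of -0.27 against 0.57 over all genes. OCLN was the 1 of 16 called in the late blastocyst, -5.32 (SE 1.02, edgeR adjusted p = 0.0175), beside 1.92% of all genes. The list median was -0.86 against 0 there. At an unadjusted p under 0.05 in edgeR there were 4 (EB), 4 (LB) and 5 (Sph) of 16, beside 2783, 2943 and 2236 of all 14721 genes. OCLN exceeded 1 TPM in 36 of 36 LB HYPO cells and 6 of 25 LB EPI cells.

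Of 10 desmosome and keratin linker genes tested, none was called in these 3 comparisons by edgeR, with list medians of -0.87, 0.06 and -0.22 in the order EB, LB and Sph. At an unadjusted p under 0.05 there were 3, 0 and 2 of them, beside 2783, 2943 and 2236 of all 14721 genes. Among 9 entries of other cytoplasmic intermediate filaments, 3 were called, all higher in LB EPI than in LB HYPO: VIM (vimentin, the mesenchymal filament protein) at 6.88 (SE 1.48, edgeR adjusted p = 0.0309), NEFL (a neurofilament) at 9.41 (SE 1.63, edgeR adjusted p = 0.0105) and INA (alpha-internexin), listed at 0 in all LB HYPO embryos (edgeR adjusted p = 0.0288). That was 3 of 9 entries beside 1.92% of all genes called, and the list median was 4.47 against 0 over all genes. At an unadjusted p under 0.05 in edgeR there were 4 of 9. VIM exceeded 1 TPM in 22 of 25 LB EPI cells, each of which also had KRT8 and KRT18, and in 1 of 36 LB HYPO cells. None of these entries was called between ICM and TE (list median 0) or between Sph EPI and Sph HYPO (1.55) by edgeR, where 1 and 2 of 9 had an unadjusted p under 0.05.

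Across all 41 embryo sums, KRT8 and KRT18 were each other's most similar gene among those with a symbol (Pearson r = 0.91 of log2(CPM + 1)), as a description over sums that share libraries, stages and depth. TPM1 (tropomyosin) and PDPN (podoplanin) followed for both, at 0.85 and 0.81 for KRT8 and 0.83 and 0.80 for KRT18. The 2 keratin genes are neighbours in the RefSeq annotation of the later Sscrofa11.1 assembly, with 1 lncRNA entry and 0 protein-coding genes between them. The claudins resembled each other less (r = 0.56). Nearest to CLDN4 were ARHGAP18, CLCN5 (a chloride transporter) and SLC34A2 (a phosphate transporter), at 0.86, 0.78 and 0.77, and nearest to CLDN8 were UBASH3B, NCOA7 and ACSL6, at 0.85, 0.85 and 0.84. Keratins and claudins were weakly alike, from 0.14 (KRT8 with CLDN8) to 0.43 (KRT18 with CLDN4).

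Within a label, KRT8 and KRT18 also varied together from cell to cell. Pearson r of log2(TPM + 1) was 0.83 over 47 Morula cells, 0.82 over 48 Sph EPI cells, 0.89 over 12 Sph HYPO cells, 0.68 over 25 LB EPI cells and 0.62 over 24 ICM cells, and it was lowest, 0.37, over the 36 LB HYPO cells. In TE it was 0.99, which the E6-ER cell raised (Spearman rho 0.65). CLDN4 and CLDN8 had r = 0.77 in TE (rho 0.67), with the E6-ER cell at 0 for both, and 0.28 in Morula, 0.15 in ICM, 0.18 in LB HYPO, 0.33 in Sph HYPO and 0.04 in LB EPI. Cells of 1 embryo share their source, so these values describe the cells and carry no test.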

How the data were processed

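Gene counts and TPM per cell were deposited by the authors, who per their notes aligned reads with HISAT2 2.1.0 to Sus scrofa v10.2 and counted uniquely placed reads with HTSeq. Genes were matched by symbol. Letters in the cell names were taken as the embryo, and counts were summed per embryo and label. After a low-count filter, 14721 genes were fitted in edgeR 4.0.16 (TMM, quasi-likelihood test, Benjamini-Hochberg adjustment, R 4.3.3), without a block. P-values measure the spread between embryo sums. Overlap between groups is a description and not a test, and the share of all genes without overlap was not counted. Fits were tested on simulated data, where 39 to 107 of 200 genes with a known change were recovered per comparison, with 2 to 22 false calls. A gene that did not pass may therefore still differ, and a gene that passed may be a false call. Alternatives used DESeq2 1.42.0 and limma 3.58.1. Permutation tests used scipy 1.17.1. Same-embryo sums pair the labels by animal; their deviations correlated at median r = 0.058, 0.021 and 0.075 for EB, LB and Sph, against -0.012, -0.019 and -0.057 between embryos. The 4 genes were named throughout, other genes where called in the ICM and TE, LB or Sph lineage comparisons, with the 3 most alike. Members and lists were chosen with earlier results of these data known.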

Additional observations from a re-analysis of the deposited data

Results flagged for a closer look

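Of 29 groups of embryos tested for a value standing apart from the rest, 11 were flagged, where chance flags about 1 in 20. All values here are log2(CPM + 1) of embryo sums unless stated. TE embryo E6-ER, a single cell, stood apart for all 4 genes: KRT8 was 0 (others 13.56 to 15.32), KRT18 0.28 (11.87 to 13.82), CLDN4 0 (7.31 to 9.57) and CLDN8 0 (7.48 to 10.53). LB HYPO embryo AL, also a single cell, had KRT8 at 10.21 (10.92 to 11.16) and CLDN8 at 0 (4.73 to 6.40). The single cells of ICM embryos AI and AD had CLDN4 at 0 (5.08 to 7.46) and CLDN8 at 0 (5.65 to 8.06). Sph EPI embryo E had KRT18 at 7.94 (10.79 to 11.35), and LB EPI embryo AO had CLDN8 at 3.05 (0 to 0.08). Morula embryo Y had a log2 KRT18 to KRT8 ratio of 4.08 (-0.61 to 0.78).

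The EPI minus HYPO difference of KRT18 differed between late blastocyst and spherical embryo by 4.63 on the log2 scale, by the interaction test. The Morula cell without an embryo name entered no sum. It had 254 TPM of KRT8, 243 of KRT18, 485 of CLDN4 and 229 of CLDN8.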

How the results depend on the processing

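The number of the 4 genes called moved by over 1.5 times as follows, with smaller moves given for Morula or LB EPI against ICM. The last 4 pools held the E6-ER cell in each comparison with TE. Between ICM and TE it was 1 in limma with either pseudocount and 0 in the last 4 pools. Between Morula and ICM (3 as reported) it was 1 in the last 4 pools, 2 in the first 4 and in limma, 4 with sums of at least 2 cells and 3 to 4 leaving out an embryo (4 without ICM embryo AD). Between ICM and LB EPI (2 as reported) it was 3 in DESeq2 and with all 7 labels, 2 in the last 4 pools, where CLDN8 was called and KRT8 was not, and 2 to 3 leaving out an embryo (3 without LB EPI embryo AO). Between Morula and TE it was 1 with edgeR's own expression filter, 0 in limma with either pseudocount, 0 in the last 4 pools and 0 to 2 leaving out an embryo. Between LB EPI and LB HYPO it was 2 in DESeq2, limma and the last 4 pools. Between Sph EPI and Sph HYPO it was 1 in limma, in the first 4 pools, in the last 4 and when fitted with all 7 labels, and 1 to 2 leaving out an embryo. Between ICM and LB HYPO it was 2 in DESeq2 and 0 in the last 4 pools. Between TE and LB HYPO it was 3 in DESeq2, with sums of at least 2 cells and without cells of less certain embryo, 2 without TMM, without a filter, in the first 4 pools and with all 7 labels, 0 in limma and the last 4 pools, and 1 to 3 leaving out an embryo. Between LB EPI and Sph EPI it was 2 in DESeq2, 1 in limma and 0 to 1 leaving out an embryo. Between LB HYPO and Sph HYPO it was 1 with all 7 labels. For the interaction it was 4 in DESeq2, 3 without TMM, 0 with sums of at least 2 cells, 3 with the replicate block and 0 to 3 leaving out an embryo. The ratio of ICM over TE was -0.94 with all cells, that of E6-ER among them (exact permutation, adjusted p = 0.0212), and that of LB EPI over LB HYPO 3.21 to 3.51 leaving out an embryo. Values that changed sign were not called. CLDN8 between Morula and TE was 0.57 and 0.80 in limma and -0.35 to 0.068 leaving out an embryo. KRT8 between LB EPI and LB HYPO was -0.049 with sums of at least 2 cells, -0.25 in the last 4 pools and -0.071 to 0.21 leaving out an embryo. CLDN4 between ICM and LB EPI was 0.21 and 0.32 in limma, 0.20 with sums of at least 2 cells and -0.41 to 0.19 leaving out an embryo, and between TE and LB HYPO -0.0015 and -0.33 in limma. CLDN8 in the interaction was -1.67 with the replicate block and -4.51 to 4.13 leaving out an embryo. The cause was not tested. The replicate block changed no other call of the 4 genes than KRT8 and CLDN4 in the interaction. CLDN8 between Sph EPI and Sph HYPO gave no value in the first 4 pools or without Sph HYPO embryo F, where neither label has a count. Genes called overall ranged with the alternatives from 9 to 865 for ICM against TE (111 as reported), 38 to 1216 for Morula against ICM (361), 20 to 894 for Morula against TE (119), 20 to 1387 in LB (283), 82 to 1453 in Sph (167), 123 to 1388 for ICM against LB EPI (428), 71 to 1112 for ICM against LB HYPO (309), 77 to 1256 for TE against LB HYPO (416), 7 to 828 between epiblasts (23), 17 to 342 between hypoblasts (24) and 3 to 542 for the interaction (6). Single-cell sums and 3 Sph HYPO embryos limit the precision.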
